A study of Mus musculus with 3 samples.

Results

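Mesothelial cells of the liver capsule were looked for in single-cell transcriptomes of injured and uninjured mouse liver. The mesothelium is the sheet of flat cells that covers the liver and the other organs of the abdominal cavity. Its cells arise from mesoderm, yet they form an epithelium with keratins, cell junctions and a free surface that faces the peritoneal fluid. In culture and in injury models they are known to make matrix and to take on features of mesenchymal cells.

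A barcode was selected when it held at least 200 detected genes and at least 1 unique molecular identifier (UMI, 1 captured transcript) of 2 or more of 5 genes, Upk3b, Msln, Nkain4, Lgals7 and Angptl7. Upk3b encodes a uroplakin of the apical membrane, Msln encodes the surface glycoprotein mesothelin, Lgals7 encodes galectin-7, a lectin of epithelia, and Angptl7 encodes a secreted angiopoietin-like protein. This gate held 97 of the 25263 barcodes with at least 200 genes, which are called cells below. The cells were chosen by the UMIs of these 5 genes, whose values are therefore given as a description.

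The livers came from adult C57BL/6 mice. The control library was labelled as sham surgery with tissue taken after 1 day. The other 2 libraries were made 1 day and 7 days after irreversible electroporation (IRE), in which electric pulses across a liver lobe kill the cells between the electrodes. All mice were unmodified, and the samples were Drop-seq libraries from 4 mm punches, of the electroporated area or of an equivalent uninjured area, digested with dispase, collagenase and DNase. Each condition was 1 library pooled from 3 livers, so no difference between conditions has a replicate check and no test was possible. Intervals in the text are exact 95% intervals for counting error alone. They do not cover differences between cells, mice, punches or digestions.

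The RefSeq promoter windows of 3 genes that set these cells apart are shown, 1 from the gate and 2 that the gate did not use. Each window spans 250 bases before to 50 bases after an annotated transcription start in build GRCm38.p6, is written 5′ to 3′ on the strand of the gene, and has in capitals each match to GGAATG or its reverse complement CATTCC, the core letters bound by TEAD factors, partners of YAP and TAZ.
Upk3b, chr5:136038246-136038545, plus strand: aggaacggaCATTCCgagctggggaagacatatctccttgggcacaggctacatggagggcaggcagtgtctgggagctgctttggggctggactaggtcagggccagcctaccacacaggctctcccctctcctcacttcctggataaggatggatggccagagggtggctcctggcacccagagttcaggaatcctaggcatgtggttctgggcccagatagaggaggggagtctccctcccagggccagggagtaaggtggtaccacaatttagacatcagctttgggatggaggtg
Lrrn4, chr2:132880813-132881112, minus strand: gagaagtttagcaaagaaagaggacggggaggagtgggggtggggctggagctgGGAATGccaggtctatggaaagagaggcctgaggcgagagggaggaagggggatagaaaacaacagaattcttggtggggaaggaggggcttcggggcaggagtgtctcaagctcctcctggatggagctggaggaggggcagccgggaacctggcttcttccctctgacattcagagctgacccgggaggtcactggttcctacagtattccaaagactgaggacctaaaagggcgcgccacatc
Igfbp5, chr1:72874816-72875115, minus strand: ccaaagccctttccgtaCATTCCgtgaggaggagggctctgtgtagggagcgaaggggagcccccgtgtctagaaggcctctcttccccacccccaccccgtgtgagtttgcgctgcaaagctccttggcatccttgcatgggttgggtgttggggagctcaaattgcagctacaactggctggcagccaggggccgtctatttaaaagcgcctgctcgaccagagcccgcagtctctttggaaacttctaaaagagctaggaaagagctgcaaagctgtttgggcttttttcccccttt
Of the 5 gate genes and the 20 other genes with the highest ratio in the gated cells, 15 had a window in the table, 18 windows in all. GGAATG was present on either strand in 7 of these 18, against 14.7% of all 32851 windows, and the windows shown were picked because they hold it. GCGTGGG, a core shared by EGR factors and WT1, was present in 0 of the 18 and in 5.04% of all windows, and TGACTCA, the AP-1 site, in 4 of the 18 and in 5.2% of all windows. The 4 windows with the AP-1 site belonged to Cldn15, with 1 window, and Dmkn, with 3. Matches to all 3 sequences describe letters in a window and show no binding.

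The control library held 92 gated cells, the 1-day library 5 and the 7-day library 0. In control they were 0.886% of 10386 cells (exact binomial 95% interval 0.715 to 1.09%). At 1 day the share was 0.054% of 9253 cells (0.0175 to 0.126%). At 7 days it was 0 of 5624 cells, which allows a share of up to 0.0533% when 3 counts are taken as the limit, and the exact upper limit was 0.0656%. The 1-day and 7-day shares were not distinguishable at this depth. All 3 shares describe the rule in 1 library each, and their intervals test no difference between conditions.

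The libraries held between 5624 and 10386 cells with a median of 456.5 to 595 UMIs each, and the labels put an estimated 1000 cells into each library, and how many of these barcodes were whole cells was not tested. Gating on rare transcripts favours deep barcodes. The control gated cells had a median of 1169.5 UMIs, the 1-day gated cells 1156, and all other control cells 593. When every cell was thinned to 200 UMIs before the gate was applied, 22 control cells, 0 cells at 1 day and 0 at 7 days passed, and a UMI of any of the 5 genes was left in 1.16%, 0.173% and 0.0178% of cells. Between 44 and 149 barcodes with at least 200 genes were shared by each pair of libraries, but only 1 gated cell had such a barcode, and no barcode was gated in 2 libraries.

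Among the 92 control cells, 54 carried 2 of the 5 genes, 20 carried 3, 16 carried 4 and 2 carried all 5. Just outside the gate, 192 control cells carried 1 of the genes, and so did 51 cells at 1 day and 4 cells at 7 days. The smallest gated cells in control had 208 and 212 detected genes, and 1 control barcode with 199 genes, which carried 3 of the gate genes, was left out. Upk3b had a UMI in 64 of the 92 cells, Lgals7 in 54, Angptl7 in 50, Nkain4 in 45 and Msln in 29. The gene pairs found most often in the same control cell were Upk3b with Nkain4 and Upk3b with Angptl7, 33 cells each. The pair found least often was Msln with Angptl7, 7 cells. Such pairs are what the rule selects, so these counts describe the rule.

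RNA of the mesothelial genes was followed over whole libraries as well, without the gate and over all barcodes. In such sums fewer cells of a type, less RNA per cell and a larger part of RNA from other cells cannot be told apart. Listed neutrophil genes took 0.509% of control UMIs and 6.03% at 7 days. Listed hepatocyte genes took 0.149% of control UMIs and 2.46% at 1 day. The part of each in the values that follow was not tested. Upk3b had 181 UMIs in the control library, 33 at 1 day and 0 at 7 days, which is 18 (15.5 to 20.9), 3.85 (2.65 to 5.41) and 0 CPM (counts per 1000000 UMIs of the library or group). Msln had 108, 18 and 2 UMIs, Nkain4 110, 7 and 0, Lgals7 169, 10 and 3, and Angptl7 216, 39 and 1. For each of the 5 genes the control library was the highest, a description of genes that the rule used. In CPM the 1-day library was between 4.68-fold (Upk3b) and 14.4-fold (Lgals7) lower than control.

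Genes that the gate did not use gave 3 different courses over the libraries. Summed over all barcodes, the list of 18 mesothelial genes without the gate genes had 1837, 2160 and 671 UMIs, so that it was 1.38-fold (1.29 to 1.47) the control level at 1 day and 0.8 times (0.731 to 0.875) at 7 days. Krt18, which bile duct cells and hepatocytes also express, had 563 of the 1-day UMIs against 214 in control. Of the 18 genes, 10 were at least 2-fold lower and 3 at least 2-fold higher at 1 day, and 12 and 2 at 7 days, with 3 counts taken in place of 0. The sum and the majority of its genes thus differed in direction at 1 day. The share of all genes past 2-fold was not counted for whole libraries, so these counts describe the list only. A first set was low at 1 day and at or near 0 at 7 days. Upk1b, another uroplakin gene, had 63, 7 and 0 UMIs, and Lrrn4, a leucine-rich repeat membrane protein gene, had 59, 9 and 0. Krt14, a keratin of basal epithelia, had 42 UMIs in control, 1 at 1 day and 0 at 7 days. Wt1, a transcription factor of the mesothelium and its embryonic precursors, had 104, 3 and 0 UMIs, and the cadherin gene Cdh11 214, 12 and 0. At 7 days Upk1b was at least 9.59-fold lower than in control, Wt1 at least 15.8-fold and Cdh11 at least 32.6-fold, with 3 counts in the library taken in place of 0. Igfbp5, which encodes a secreted binding protein of insulin-like growth factors, had 360 UMIs in control, 131 at 1 day and 2 at 7 days.

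A second set did not follow this course at 1 day. Krt19 had 139 UMIs in control, 126 at 1 day and 20 at 7 days, or 13.9 (11.6 to 16.4), 14.7 (12.3 to 17.5) and 4.37 (2.67 to 6.74) CPM. Gpm6a, a neuronal and epithelial membrane glycoprotein gene, had 84, 86 and 1 UMIs. Another set was highest at 7 days. Pdpn, the podoplanin gene, had 137, 17 and 350 UMIs, and at 7 days it was 5.6-fold (4.58 to 6.87) the control level in CPM. Dmkn, a gene of stratified epithelia, had 65, 3 and 205 UMIs, and Igfbp6 had 375, 39 and 320. The 7-day UMIs of these 3 genes lay outside gated cells, of which that library had 0, so they do not follow the gate genes.

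**Figure D1:**
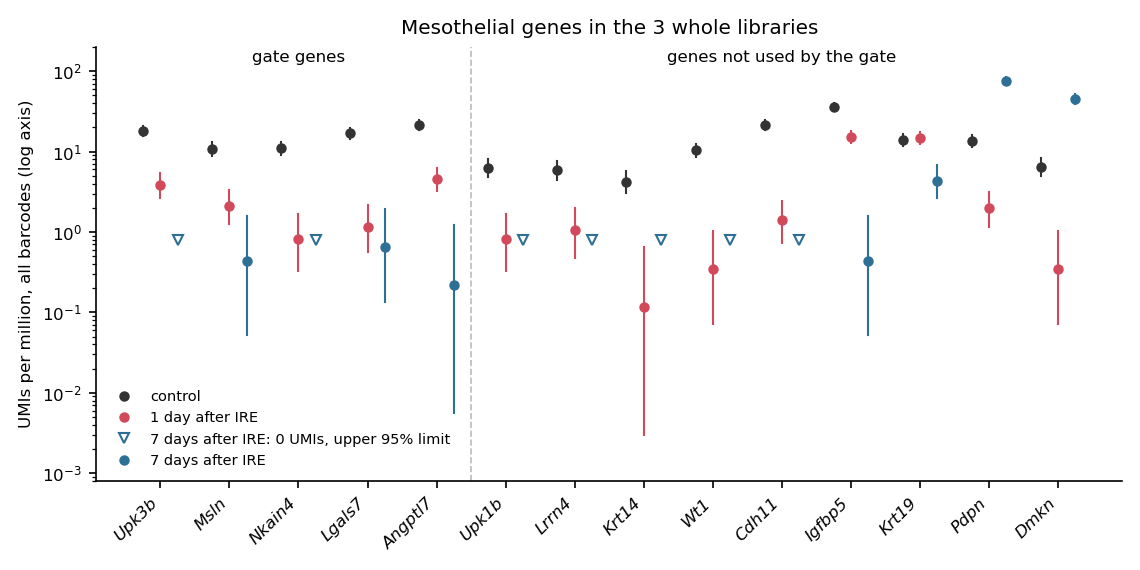
Counts per 1000000 UMIs over all barcodes of each library (log axis) for the 5 gate genes and 9 genes the gate did not use. Points are values, lines exact Poisson 95% intervals, and open triangles the exact upper limits where a library had 0 UMIs. All 5 gate genes and Upk1b, Lrrn4, Krt14, Wt1, Cdh11 and Igfbp5 were highest in control, while Pdpn and Dmkn were highest at 7 days.

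A pair of other cell kinds were gated in the same way for comparison. A fibroblast gate asked for 2 of Dpt, Mfap5, Clec3b, Pi16 and Lum, and a cholangiocyte gate, for the epithelium of bile ducts, for 2 of a set of bile duct genes with Epcam, Cldn4, Cldn7 and Tm4sf4. Cells of the mesothelial gate, and cells of both other gates at once, were left out of them. The term other cells stands for every cell outside the mesothelial gate, those of the other gates included. The fibroblast gate held 130 control cells, 5 at 1 day and 0 at 7 days. The cholangiocyte gate held 37, 63 and 13 cells, which is 0.356% (0.251 to 0.491%), 0.681% (0.524 to 0.87%) and 0.231% (0.123 to 0.395%) of cells. Mesothelial and fibroblast gates thus had the same order of libraries, and the cholangiocyte gate did not. Of the 92 control cells, 8 also carried 2 fibroblast gate genes and 0 carried 2 cholangiocyte gate genes. On the longer list of 10 fibroblast genes, 47 of the 92 cells (51.1%) carried at least 2, against 2.75% of other cells. The list took 0.207% of the UMIs of the 92 cells, 4.04-fold (3.56 to 4.58) the level of other cells. It stood at 0.16 times (0.141 to 0.182) the level of the fibroblast gate, whose cells were chosen by 5 of the 10 genes. That last ratio is therefore a description of the rule. The stellate and mural list was 2.57-fold (2.01 to 3.23) above other cells and 0.491 times (0.373 to 0.641) the fibroblast gate. Of its 76 UMIs in the gated cells, 42 were from 1 gene, Ecm1.

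The label of the cells was checked on a list of 18 mesothelial genes without the gate genes. In the control gated cells this list took 387 UMIs, 0.301% of all their UMIs (0.271 to 0.332%), against 0.0163% in the other control cells, an 18.5-fold difference (16.5 to 20.7). Of the 16 listed genes with at least 20 UMIs in control cells, 15 were at least 2-fold higher in the gated cells, with a median log2 ratio of 4.71. Over all 11641 genes tested in the same way, 13.9% were at least 2-fold higher and 10.9% at least 2-fold lower, and the median log2 ratio was 0.29. Per cell the list took from 0 to 0.959% of UMIs with a median of 0.264%, and 12 of the 92 cells had no UMI of it. In the fibroblast gate the list took 0.0415% of UMIs. In the cholangiocyte gate it took 0.205%, on 6 of its genes, and the keratins Krt8, Krt18 and Krt19 carried most of it.

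Leading genes outside the gate were Upk1b with 36 UMIs in the control gated cells and Lrrn4 with 33, both 91.9-fold higher in CPM than in the other control cells. The interval was 53.3 to 161-fold for Upk1b and 52 to 165-fold for Lrrn4. Next came Dmkn and Krt14, both 81.6-fold, with 36 and 24 UMIs, and Cldn15, a claudin of pore-forming tight junctions, 69.2-fold with 26 UMIs. Sulf1, a sulfatase that edits heparan sulfate, was 56.9-fold higher, Prr15 52.9-fold, Igfbp5 50.3-fold and the adhesion receptor gene Gpr64 45.3-fold. Gpm6a stood at 44.5-fold, the carboxypeptidase gene Cpe at 43.9-fold and Krt19 at 40.8-fold. Cdh11, Krt7, Igfbp6, Gpr133, Leprel4, Bicd1, Gas1 and Rspo1, a secreted amplifier of Wnt signalling, followed between 27.4-fold (Rspo1) and 38.8-fold (Cdh11). All 20 genes were chosen for this ratio.

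Markers of blood and endothelial cells were lower in the gated cells than in the rest. The macrophage and monocyte list took 0.284% of UMIs in the gated cells, between 0 and 3.84% per cell, against 1.1% in the other control cells. It took 0.253% in the fibroblast gate. Lyz2, its most abundant gene, had 186 UMIs in the gated cells, 1444 CPM against 5661 in the other cells, and the Kupffer cell lectin Clec4f had 36. All 9 measured macrophage genes and 8 of 9 endothelial genes were at least 2-fold lower than in the other cells. Of all genes tested in this comparison, 10.9% were. The hepatocyte list took 0.059% of UMIs against 0.164%. Of its 76 UMIs in the gated cells, 56 were Trf and 14 Alb. At least 2 macrophage genes were found in 43 of the 92 cells (46.7%), against 59.6% of all other cells and 44.6% of the fibroblast gate. At least 2 of 8 neutrophil genes were found in 23 of the 92 cells (25%), against 15.6% of other cells. Such tallies rise with depth, which was greater in the gated cells. By share of UMIs the neutrophil list was lower in the gated cells, 0.0947% against 0.397% in the other cells. Epcam, which defines bile duct cells, had 0 UMIs in the gated cells, and Spp1 had 7, 238-fold less in CPM than in the cholangiocyte gate. Most of the 92 cells carried at least 2 genes of some other class (blood, endothelial, bile duct or fibroblast). Whether the macrophage UMIs came from second cells or from free RNA was not tested.

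The gated cells differed from the fibroblast gate in both directions. Of the 2564 genes with at least 20 UMIs in the 2 groups together, 9.67% were at least 2-fold higher in the gated cells and 9.67% at least 2-fold lower. Dpt, a dermatopontin gene and part of the fibroblast gate, had 3 UMIs in 2 of the gated cells. Among fibroblast markers that the fibroblast gate did not use, Col1a1 was 5.17-fold lower in the gated cells and Pdgfra, with 10 UMIs, stood at 0.668 times the fibroblast level (0.281 to 1.48), which was not distinguishable.

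Epithelial genes set them apart. The list of junction and polarity genes took 0.185% of UMIs in the gated cells, 0.0188% in the fibroblast gate and 0.159% in the cholangiocyte gate. The ratio was 9.82 (6.83 to 14.5) to the fibroblast gate and 1.16 (0.882 to 1.56) to the cholangiocyte gate. Ezr encodes ezrin, which ties the membrane of microvilli to actin, and it had 98 UMIs in the gated cells against 5 in the fibroblast gate, 27.5-fold higher in CPM (11.4 to 86.5). F11r, a junctional adhesion molecule gene, was 5.81-fold higher (2.49 to 15.7), and the P-cadherin gene Cdh3 with 15 UMIs was 5.26-fold higher (1.68 to 21.8). All 4 genes of this list with at least 20 UMIs in the 2 groups were at least 2-fold higher, against 9.67% of all genes tested. Gpm6a and Cldn15 of this list are also on the mesothelial list and among the 20 genes chosen for their ratio. The 2 lists are therefore not separate evidence.

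Among intermediate filament genes, Krt19 had 54 UMIs, Krt14 24, Krt7 23, Krt8 23 and Krt18 17 in the gated cells, while the fibroblast gate had 0, 0, 0, 1 and 2. The same cells held 234 UMIs of Vim, the mesenchymal filament vimentin. Vim stood at 1817 CPM against 1888 in the fibroblast gate, a ratio of 0.962 (0.811 to 1.14), and 18.6-fold (7.17 to 68.9) above the cholangiocyte gate. The keratins themselves divided the gated cells from the bile duct cells. Krt8 was 4.78-fold lower and Krt18 6.84-fold lower than in the cholangiocyte gate, Krt19 was 2.45-fold higher (1.11 to 6.39), and Krt7 and Krt14 had 0 UMIs among the 40964 of the cholangiocyte gate. Keratins and vimentin were thus measured side by side in the same group of cells.

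**Figure D2:**
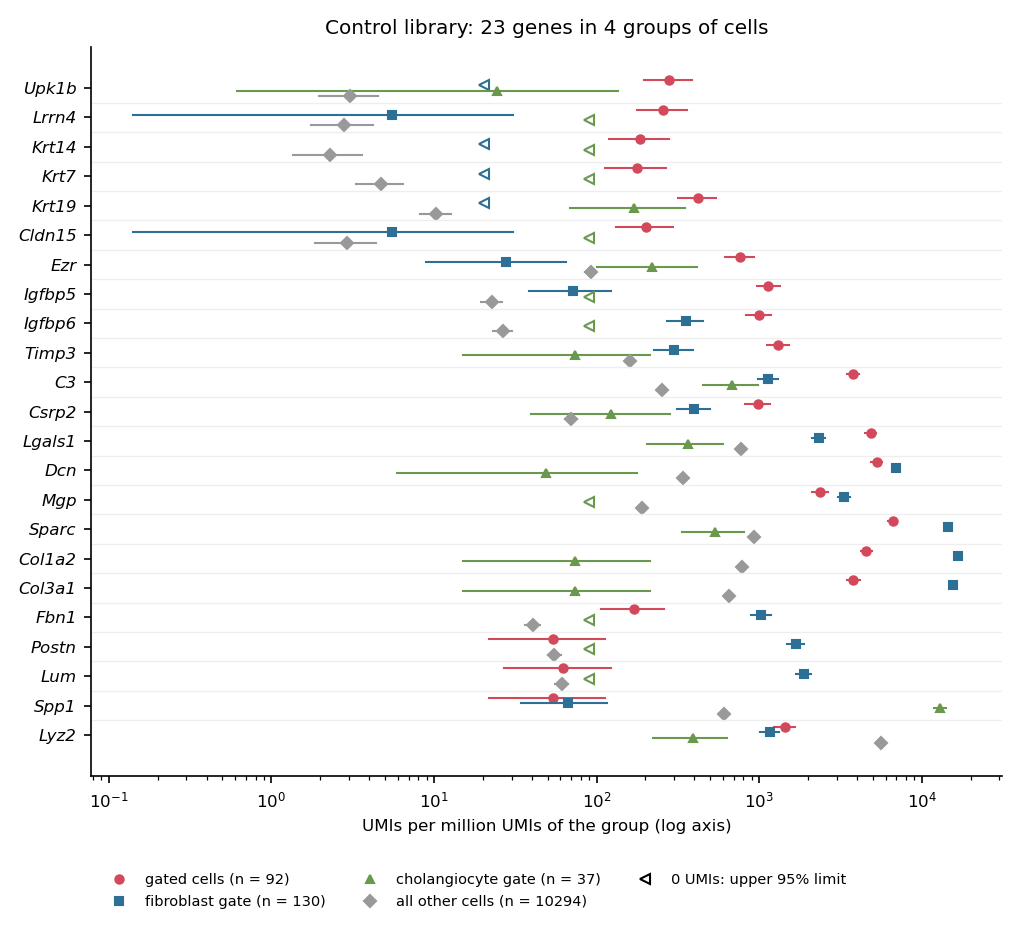
Levels of 23 genes in the control library in counts per 1000000 UMIs of each group (log axis), for 92 gated cells, 130 cells of the fibroblast gate, 37 of the cholangiocyte gate and 10294 other cells. Markers are values, lines exact Poisson 95% intervals, and open triangles exact upper limits at 0 UMIs. Lum is a gene of the fibroblast gate. Upk1b, Krt14, Krt7, Krt19 and Igfbp5 were highest in the gated cells, and Col1a2 and Col3a1 lay between the fibroblast gate and the rest.

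Matrix genes were abundant but lay below the fibroblast level. Fibrillar collagens took 0.999% of UMIs in the gated cells (0.946 to 1.06%), 3.95% in the fibroblast gate, 0.177% in the other cells and 0.0146% in the cholangiocyte gate. Per cell the share ran from 0 to 4.2% with a median of 0.922%, and 88 of the 92 cells had at least 1 fibrillar collagen UMI. Col1a2 had 589 UMIs, 4574 CPM against 16761 in the fibroblast gate, and Col3a1 had 489. All 6 fibrillar collagen genes tested were at least 2-fold lower than in the fibroblast gate, against 9.67% of all genes tested. The 2 chains of type I collagen were also in another proportion. Col1a1 made up 16.6% of Col1a1 and Col1a2 UMIs together in the gated cells (13.9 to 19.5%) and 21.9% in the fibroblast gate (20.6 to 23.2%).

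Type VI collagen behaved otherwise. Col6a1, with 89 UMIs, stood at 0.946 times the fibroblast level (0.714 to 1.25), and Col6a2, with 60, at 0.935 times (0.663 to 1.31). Col6a3, the remaining chain measured, was at 77.7 CPM against 449, 5.78-fold lower. Basement membrane genes, for the sheet on which an epithelium rests, took 0.171% of UMIs against 0.228% in the fibroblast gate and 0.0427% in the other cells. Of them the nidogen gene Nid2 was 4.91-fold above the fibroblast gate (1.54 to 20.5) with 14 UMIs, while Col4a1, Lamb1 and Hspg2 had ratios of 0.683 (0.448 to 1.02), 0.668 (0.371 to 1.16) and 1.2 (0.667 to 2.15).

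Secreted glycoproteins were the most abundant matrix class, at 1.37% of UMIs, against 2.99% in the fibroblast gate. Sparc, a collagen-binding matricellular protein, had 855 UMIs and was 2.19-fold lower than in the fibroblast gate. Mgp, which inhibits calcification, had 305 UMIs and was 1.41-fold lower, and fibronectin, Fn1, had 164 and was 1.28-fold lower. Fbn1, the fibrillin of elastic microfibrils, was 6.03-fold lower and periostin, Postn, 30.9-fold lower, with 7 UMIs. Of the 19 genes tested, 12 were at least 2-fold lower, against 9.67% of all genes. The fibulin gene Efemp1, with 16 UMIs, was the 1 gene at least 2-fold higher (2.81, 1.13 to 7.57). Without gated cells that carry markers of another class the ratio of Efemp1 was 0.932. The proteoglycan decorin, Dcn, had 680 UMIs in 84 of the 92 cells and was 1.32-fold lower than in fibroblasts, whereas Ogn was 5.28-fold lower. The syndecan gene Sdc4, a transmembrane proteoglycan, was 2.9-fold higher (1.85 to 4.64) with 62 UMIs. Prg4, the lubricin gene, had 11 UMIs against 1.

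Enzymes that cut or link matrix showed a similar division. Timp3, a matrix-bound inhibitor of metalloproteinases, had 168 UMIs and was 4.36-fold above the fibroblast gate (3.19 to 6.04), while Timp2 stood at 0.946 times its level (0.742 to 1.2). Tgm2, a transglutaminase that crosslinks proteins, was 4.99-fold higher with 32 UMIs. The metalloproteinase genes Mmp2 and Mmp14 were 11.1-fold and 2.45-fold lower, and the collagen chaperone Serpinh1 was 1.8-fold lower.

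Among IGF-binding proteins, Igfbp5 had 147 UMIs in 35 of the 92 cells and was 15.9-fold above the fibroblast gate (8.99 to 30.5). Igfbp6 had 128 UMIs in 52 cells and was 2.81-fold higher (2.06 to 3.85). Igfbp4 was 1.56-fold lower, and Igf1 itself, the ligand, was 4.34-fold lower. The whole list stood at 0.456% of UMIs against 0.48% in the fibroblast gate, a ratio of 0.95 (0.854 to 1.06) for the sum.

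The complement list took 0.655% of UMIs in the gated cells, 0.328% in the fibroblast gate and 0.113% in the other cells. It took 1.64% in the cholangiocyte gate, where Clu made up most of it. C3, the central protein of the cascade, had 487 UMIs in 73 of the 92 gated cells. That was 3782 CPM against 1141 in the fibroblast gate, 3.32-fold higher (2.81 to 3.92), and 5.53-fold above the cholangiocyte gate (3.78 to 8.41). C2, which forms part of the classical C3 convertase, was 3.02-fold above the fibroblast gate (1.51 to 6.35), while C1ra and C4b had ratios of 1.18 (0.787 to 1.76) and 0.801 (0.464 to 1.35). Of 9 complement genes tested, 5 were at least 2-fold higher and 0 at least 2-fold lower than in fibroblasts. Over all genes tested, 9.67% were higher and 9.67% lower.

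Signalling genes were sparse. Bmp4 had 18 UMIs against 1 in the fibroblast gate, and Fgf1 26 against 3, a 12.2-fold difference (3.73 to 62.7). Wnt4, Wnt5a and the YAP target Cyr61 had 19, 20 and 27 UMIs and ratios of 1.33, 1.56 and 1.11, each with an interval that held 1. In the retinoid and lipid list, the prostacyclin synthase gene Ptgis had 93 UMIs and was 2.9-fold higher (2.01 to 4.24), the retinoic acid enzyme gene Aldh1a1 was 5.38-fold higher (2.13 to 16.1) and Ptgs1, cyclooxygenase 1, was 3.68-fold higher (2.03 to 7.01). The sum of the list was below that of the other cells, 0.603% against 1.28%, and Apoe made up most of the difference.

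Stress and cycle genes differed less between the 2 gates than the matrix lists did. Immediate early genes took 0.346% of UMIs in the gated cells and 0.294% in the fibroblast gate, with Fos 1.48-fold higher (1.06 to 2.05). Heat shock genes took 0.949% and 0.735%, a ratio of 1.29 (1.19 to 1.4), and the small heat shock protein gene Hspb1 was 2.55-fold higher (1.69 to 3.89) with 69 UMIs. The metallothionein gene Mt2 was 2.66-fold higher (1.67 to 4.33). Interferon response genes took 0.292% and 0.27%, and cell division genes 0.0823% and 0.0642%. Smooth muscle actin, Acta2, was 5.04-fold lower than in the fibroblast gate, while the mesenchymal transition list as a whole was at 0.754% and 0.765%. Antigen presentation genes took 0.488% and 0.472%, against 1.55% in the other cells, and chemokines 0.045% and 0.0753%.

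The control cells were next divided by how many gate genes they carried. From 1 to 2 to 3 to 4 or 5 gate genes the median depth was 785, 880, 1790.5 and 2269 UMIs, so the divisions differ in depth as well. The mesothelial list took 0.0917%, 0.261%, 0.248% and 0.391% of UMIs, and junction genes 0.0569%, 0.141%, 0.167% and 0.254%. Igfbp5 stood at 169, 481, 961 and 2120 CPM and C3 at 849, 2978, 2853 and 5511. Fibrillar collagens went from 1.25% at 1 gate gene through 1.1% and 1.14% to 0.768% at 4 or 5, and Dcn went from 2943 CPM through 4883 and 5365 to 5723. The macrophage list went from 0.627% through 0.364% and 0.338% to 0.141%. Dpt had 83 UMIs in the cells with 1 gate gene, 3 in those with 2 and 0 in those with 3 or more. Cells with 1 gate gene thus had a larger share of fibrillar collagen, Dpt and macrophage RNA than those inside the gate. Their share of mesothelial RNA was smaller.

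**Figure D3:**
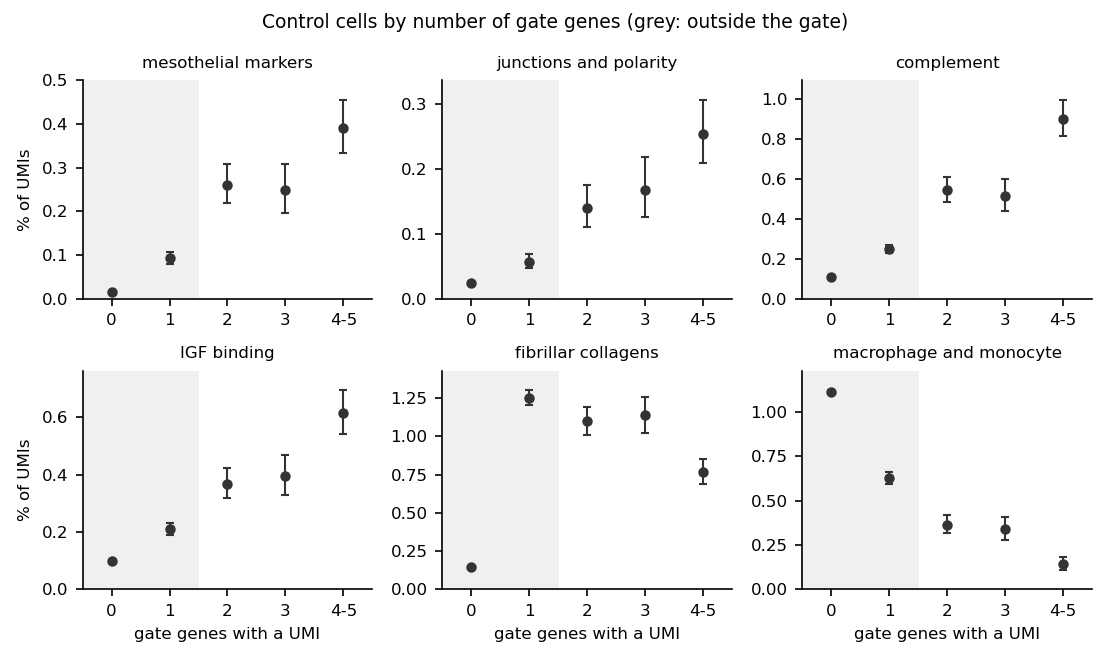
Share of UMIs (%) taken by 6 gene lists in control cells with 0, 1, 2, 3 and 4 to 5 gate genes, none of the lists holding a gate gene. The mesothelial and junction lists share genes, Gpm6a and Cldn15 among them. Points are values and lines exact binomial 95% intervals, and grey marks cells outside the gate. Mesothelial, junction, complement and IGF-binding shares were highest at 4 to 5 gate genes (0.391% for mesothelial genes), and the macrophage share was lowest there (0.141%).

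The 5 gated cells at 1 day had 1729, 1484, 1156, 1021 and 906 UMIs. In that order their gate genes were Upk3b with Msln, Msln with Nkain4, Upk3b with Msln and Lgals7, Msln with Angptl7, and Upk3b with Lgals7. The mesothelial list without the gate genes had 20, 9, 7, 4 and 8 UMIs in them, so each of the 5 cells carried it. The list took 0.762% of their UMIs (0.563 to 1.01%), against 0.0268% in the other cells of the library, 28.5-fold more (20.9 to 37.9), and 2.54-fold more (1.84 to 3.43) than in the control gated cells. In the other cells the list was 1.65-fold (1.53 to 1.77) higher at 1 day than in control.

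RNA from hepatocytes was spread over the whole 1-day library. The hepatocyte list took 0.858% of UMIs in the 5 cells and 2.72% in the other cells of that library, against 0.059% and 0.164% in control. Alb had between 1 and 6 UMIs in each of the 5 cells. Relative to the control gated cells Alb was 29.2-fold higher, and Trf, the most abundant gene of the list there, 4.02-fold. Macrophage genes took 0.27% of their UMIs, and Dpt had 0 UMIs. The part of hepatocyte RNA in the values that follow was not tested.

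With 6296 UMIs in the 5 cells, 1 UMI stood for 159 CPM. A gene with 20 UMIs in control (155 CPM) therefore counted as 2-fold higher with 2 UMIs at 1 day (318 CPM). Of the 1080 genes with at least 20 UMIs in the 2 libraries together, 27.8% (300 genes) were at least 2-fold higher at 1 day and 9.72% (105 genes) at least 2-fold lower. With at least 50 UMIs required, these became 28 and 84 of 358 genes. The counts over all genes therefore turned on the filter, and the list counts below are read against them.

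Complement genes had the largest sum among the lists that were higher at 1 day. They took 1.59% of UMIs (1.29 to 1.93%), 2.43-fold (1.95 to 2.99) the control gated cells, with 4 of 8 genes at least 2-fold higher and 1 lower. In the other cells the list was 2.85-fold (2.78 to 2.93) higher at 1 day than in control. C3 had 30, 12, 5, 12 and 5 UMIs in the 5 cells, 10165 CPM together, against 3782 in the control gated cells, a ratio of 2.69 (2.04 to 3.49). C3 was also higher in all other cells of the 1-day library, 879 against 254 CPM, a ratio of 3.46 (3.29 to 3.64). In the 1 cell with 3 gate genes it stood at 0.991 times (0.32 to 2.34) the control cells with at least 3, and the whole complement list at 0.942 times. Serping1, the C1 inhibitor, had 11 UMIs and was 4.09-fold higher (1.93 to 7.9), and C4b, with 11 UMIs, was 9.37-fold higher (4.15 to 19.9), against 1.12-fold in the other cells.

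The genes with the highest ratios at 1 day were Car3 and Apoc1, both abundant in hepatocytes, at 38-fold and 18.6-fold, and in the other cells of the library they were 28.2-fold and 5.09-fold higher. Rarres2, the chemerin gene, had 12, 6, 2, 1 and 2 UMIs in the 5 cells and was 10.5-fold higher (6.04 to 17.6), beside 6.55-fold in the other cells. Efemp1 had 2, 1, 0, 1 and 4 UMIs and was 10.2-fold higher (3.79 to 25.3), beside 1.52-fold (0.973 to 2.4). Nbl1, a secreted BMP antagonist gene, had 6 UMIs and was 5.84-fold higher (1.93 to 15), where the other cells stood at 0.176 times control. AW112010, Eif4g3, Fcna and Setd5 completed the 10 highest, at 4.81 to 6.39-fold with 4 to 6 UMIs each.

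Filaments, IGF-binding proteins and interferon genes were also higher. Vim had 9, 0, 8, 8 and 2 UMIs and was 2.36-fold higher (1.52 to 3.52), although in the other cells it stood at 0.315 times control. Igfbp5 had 7, 3, 5, 0 and 0 UMIs and was 2.09-fold higher (1.14 to 3.56), and Igfbp6 had 4, 4, 5, 0 and 1 and was 2.24-fold higher (1.19 to 3.89). The 3 deepest cells thus held all Igfbp5 UMIs. The IGF-binding list took 0.842% of UMIs against 0.456%, with 3 of 5 genes at least 2-fold higher and 0 lower. That is 1.85-fold (1.37 to 2.45), beside 2.57-fold (2.5 to 2.64) in the other cells of the library. Interferon response genes took 0.651% against 0.292%, with Ifitm3 2.13-fold (1.21 to 3.52) and Ifi27l2a 3.46-fold (1.65 to 6.61) higher, beside 1.18-fold and 0.828 times in the other cells. Pdpn, with 5 UMIs, was 4.09-fold higher (1.22 to 10.9), and Gpm6a, with 6, was 3.83-fold higher (1.31 to 9.3).

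Some matrix lists were lower in sum, and others were not distinguishable from control. Fibrillar collagens took 0.508% of UMIs (0.348 to 0.717%) against 0.999%, with 0 of 4 genes at least 2-fold higher and 2 lower. Col1a2 had 1, 2, 3, 2 and 4 UMIs and was 2.4-fold lower, a ratio of 0.417 (0.214 to 0.733), and Col3a1 had 5, 1, 4, 1 and 4, a ratio of 0.627 (0.348 to 1.05). In the other cells of the library fibrillar collagens were at 0.004%, against 0.177% in the other control cells. That is a ratio of 0.0226 (0.0198 to 0.0256), further below control than in the gated cells. The 5 cells were 127-fold (85 to 184) above this lowered level. Glycoproteins took 0.699% against 1.37%, a ratio of 0.511 (0.37 to 0.689), with 4 of 8 genes at least 2-fold lower and 2 higher, and in the other cells they were 1.19-fold higher. Fn1 had 1 UMI, a ratio of 0.125 (0.00314 to 0.705), Mgp 2, a ratio of 0.134 (0.0162 to 0.489), and Sparc 20, a ratio of 0.478 (0.291 to 0.744). Dcn had 2, 0, 4, 3 and 3 UMIs and a ratio of 0.361 (0.186 to 0.635). Lgals1, the galectin-1 gene, had 5 UMIs and a ratio of 0.163 (0.0529 to 0.383). Eef1b2, Csrp2, Creg1, Cald1, Pabpc1, Gas1 and the gate gene Angptl7 were the other genes among the 10 lowest, with 1 to 3 UMIs each and ratios from 0.14 (Eef1b2) to 0.243 (Gas1).

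The fibroblast list, with 4 UMIs at 1 day, had a ratio of 0.308 (0.0832 to 0.797), beside 0.0719 (0.0625 to 0.0822) in the other cells. The retinoid and lipid list had a ratio of 1.55 (1.17 to 2.03), where Apoe held 45 of 59 UMIs. Several other lists had an interval that held 1. Basement membrane genes had a ratio of 0.93 (0.44 to 1.74), collagens other than the fibrillar and basement membrane ones 1.2 (0.587 to 2.19), crosslinking enzymes and proteases 0.851 (0.566 to 1.23), proteoglycans 0.754 (0.522 to 1.06), heat shock genes 0.837 (0.618 to 1.11) and immediate early genes 0.873 (0.521 to 1.38). Krt14 and Dmkn had 0 UMIs at 1 day against 24 and 36 in control, which is not distinguishable at 6296 UMIs, since the 3 UMIs that a count of 0 allows are 476 CPM, above their control levels of 186 and 280.

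**Figure D4:**
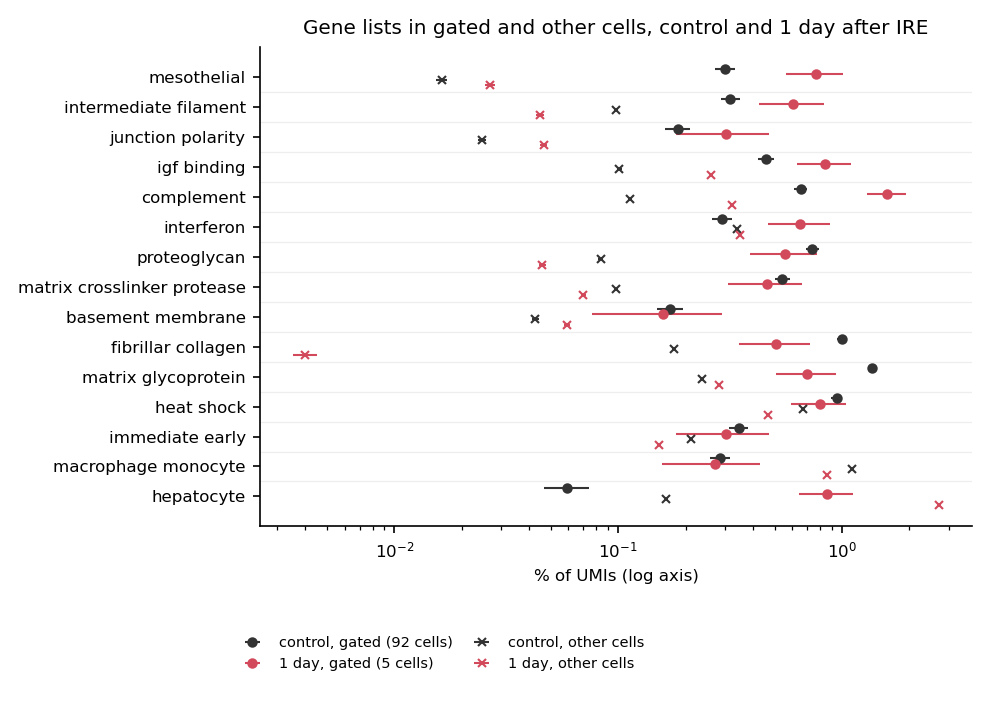
Share of UMIs (%, log axis) of 15 gene lists in the gated cells (circles) and in all other cells (crosses) of the control (black) and 1-day (red) libraries, with exact binomial 95% intervals. In the 5 gated cells at 1 day complement was higher than in the 92 control gated cells (1.59% against 0.655%) and fibrillar collagen lower (0.508% against 0.999%). Complement and hepatocyte genes were higher, and fibrillar collagen lower, in both kinds of cell.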

How the data were processed

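Single-cell suspensions of 3 pooled livers per condition were run on Drop-seq. The authors aligned the reads with STAR (2.5.2a, per the submitters' processing notes) and, per the file headers, deposited raw UMI counts per gene and barcode from sense reads over coding and untranslated bases, with a mapping quality of at least 10 and UMIs within 1 base merged. The notes name build hg19 although the symbols are those of mouse, so no coordinates of the counts are used. The labels give 75 V for IRE, and the study's methods give another voltage. The headers give a minimum of 200 genes, yet barcodes with 11 genes are present. Total UMIs were 10032574 in control, 8563287 at 1 day and 4580021 at 7 days.

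From the deposited counts, UMIs were summed over the gated cells of each library and divided by their total, as counts per 1000000 UMIs (CPM) or percent, with python 3.11.15, numpy 2.4.6 and scipy 1.17.1. Intervals at 95% are exact Poisson, exact binomial (Clopper-Pearson) and, for ratios, conditional binomial. A group at 0 was set to 3 counts for a bound. A gene was counted as at least 2-fold different with at least 20 UMIs in both groups together, and for control gated against other cells a higher call needed over 3 UMIs. Of 32 lists, 4 genes were absent from the files. The cells, lists and gates were chosen with earlier results of these data known. Named genes were the gate genes, the 20 genes with the highest ratio over other cells in libraries with at least 30 gated cells (control) and at least 20 UMIs, the 10 highest and 10 lowest at 1 day (mitochondrial and hepatocyte genes apart), and up to 4 genes per functional list. Genes named beyond these were chosen after their values were seen. No doublet caller was run. The intervals of ratios were tested on simulated counts that held counting error alone. That simulation had no spread between cells, mice or libraries, so it does not speak to such spread. A few genes of the lists and of the cholangiocyte gate are not reported here by name.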

Additional observations from a re-analysis of the deposited data

How the results depend on the processing

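No paired analysis was possible because each condition was 1 library, and no library could be left out for the same reason. Between 275 and 508 values were recomputed under each alternative gate, cell filter or scaling, and 2 counts under each of 2 filters on low UMIs. The order control, 1 day, 7 days of the gated share was kept under each gate and filter except thinning, where 1 day and 7 days were both at 0. The control share was 0.366% with at least 3 gate genes and 0.636% without Angptl7 in the gate. It was 1.29% with at least 300 genes per cell, 0.212% after thinning to 200 UMIs and 1.35% without cells over 20% mitochondrial UMIs. It was 0.271% without gated cells that carry 2 or more markers of another class. That filter took out most of the control gated cells. The 1-day share was 0.0108% with at least 3 gate genes, 0 after thinning and 0.0108% without such mixed cells, so the 5 cells became 1, 0 and 1, and no 1-day value exists after thinning. The mesothelial list was 30.3-fold above other cells after thinning. Genes at least 2-fold higher at 1 day numbered 30 of 172 without mixed cells, 28 of 358 with at least 50 UMIs and 1362 with at least 10, against 300 of 1080, and genes at least 2-fold lower 19 of 571 with at least 3 gate genes and 34 without mixed cells, against 105.

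Ratios that crossed 1 were mostly those at 1 day. With at least 3 gate genes, where 1 cell is left, the ratio of 1 day to control was 1.38 for the fibroblast list, 0.942 for the complement list, 2.44 for Col1a1 and 0.991 for C3. Without Angptl7 it was 0.894 for the endothelial list and 0.937 for Btg2, and without cells over 20% mitochondrial it was 0.893 for Krt19. Without mixed cells it was 1.48 for Mmp14, 0.653 for Igfbp4, 1.17 for Tpm1 and 3.26 for S100a4, and Efemp1 stood at 0.932 times the fibroblast gate. After thinning, the neutrophil list, S100a8 and S100a9 stood at 1.24, 1.11 and 1.27 times the fibroblast gate, and Igfbp7 and Fos at 0.838 and 0.827 times the other cells. The cause of these shifts was not tested. Thinning kept 91 of 275 values within their counting interval, leaving out mixed cells 246 of 424, the gate of at least 3 genes 364 of 424, the gate without Angptl7 491 of 498, the minimum of 300 genes 489 of 507 and the mitochondrial filter 463 of 502. Scaling without mitochondrial and hepatocyte genes kept 472 of 496, and giving each cell the same weight 454 of 505, with no crossing in either. Leaving out cells whose barcode was also a cell in another library, an alternative chosen after seeing the data, kept all 508.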
